A study of Mus musculus with 24 samples.

Results

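The unfolded protein response and the integrated stress response were examined through 32 genes, out of 45706 genes counted, in RNA sequencing of mouse intestinal organoids. The 32 genes were a given list of unfolded protein and ATF4 pathway genes. All 32 were found in both count tables and all 32 had enough reads to be tested in either tissue. By role they were 4 stress sensors (Eif2ak3, Ern1, Ern2, Atf6), 4 transcription factors (Xbp1, Atf4, Ddit3, Creb3l1), 13 chaperones and foldases of the endoplasmic reticulum (ER), 4 genes of ER-associated degradation (Herpud1, Edem1, Sel1l, Syvn1), 5 amino acid and folate enzymes under ATF4 (Asns, Psat1, Phgdh, Shmt2, Mthfd2) and 2 further ATF4 targets (Trib3, Chac1).

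Secretory and membrane proteins fold in the ER. When unfolded protein builds up there, the membrane sensors ATF6, IRE1 (encoded by Ern1 and, in mucosal epithelium, Ern2) and PERK (encoded by Eif2ak3) start a transcriptional programme. ATF6 and the spliced form of XBP1 raise chaperones and the degradation machinery. PERK phosphorylates the translation initiation factor eIF2alpha, as do the kinases that sense amino acid shortage, haem shortage or viral RNA, and this favours translation of ATF4, which raises Ddit3 (encoding CHOP), Trib3, Chac1 and enzymes of amino acid synthesis. Secretory cells of the gut, the goblet and Paneth cells, depend on this programme, and Ern2 and Creb3l1 are known from mucus-producing cells. Most of this signalling acts on proteins and on the splicing of Xbp1, which counts per gene do not show.

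The organoids, self-renewing epithelium cultured from small intestine (SI) or colon (COL), were of C57BL/6N strain and carried BraffloxV600E/+, Trp53LSL-R172H/+ or both, here called BRAF, p53 and BRAFp53. All groups, controls included, also carried Villin::CreERT2, a recombinase that is driven by the epithelial Villin promoter and activated by 4-hydroxytamoxifen (4-HT). On organoids received 4-HT for 24 h, which lets the recombinase switch on BRAFV600E (a kinase locked in its active form) and p53R172H (a missense form of p53), and off organoids received ethanol. SI organoids were given 0.5 µM 4-HT with RNA taken on day 8, and COL organoids 3.5 µM with RNA taken on day 3, and the COL medium held extra Wnt pathway activators, so tissue, dose, day and medium cannot be told apart. By the methods each of the 3 genotypes came from a single donor mouse, and the cultures of each tissue were induced in duplicate, which gave 12 groups of 2 libraries. Except in the comparison of off organoids, which is made between cultures, the p-values below therefore measure the spread between duplicates of 1 culture, and a difference between genotypes is also one between donor cultures.

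Total counts per library ran from 44350747 to 78175143, and the lowest count of any of the 32 genes in any library was 310. One library stood apart. SI BRAF on replicate 1 held the X-inactivation transcript Xist at 13.6 CPM (counts per 1000000 counts of a library), against 0.180 to 0.478 in the other 3 libraries of its culture and 106.2 to 151.6 in the 8 SI libraries of the other genotypes. Y-linked genes were present in it (98.4 CPM over 4 genes) as in the rest of its culture (102.9 to 144.2) and near 0 in those 8 libraries (at most 0.161). Its Xist level was 10.3% of the mean of those 8, and whether it holds RNA of another culture was not tested. All 12 COL libraries held Y-linked genes and almost no Xist, so that these transcripts matched between the tissues for BRAF (apart from the Xist in this library) and differed for BRAFp53 and p53, although a single donor mouse is named for each genotype. SI BRAF results are therefore given with and without this library. As a check of the labels, Trp53 rose by 0.94 in both p53-bearing COL arms and by 0.52 in SI BRAFp53 on the log2 scale, stood at 0.76 in SI p53 (adjusted p = 0.194 by edgeR), and fell by 0.44 in COL BRAF and by 0.62 in SI BRAF, while Braf stood at 0.38 to 0.50 in the 4 arms with BRAFV600E and was called in none. Markers of epithelium summed to 8009 to 31680 CPM and moved with induction, as given beside the secretory markers, and those of stroma, endothelium and immune cells to 0.781 to 4.78 CPM, with 10 of 12 under 1 CPM in every library of each tissue.

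The promoters of some members hold the sequence elements through which the response is known to act. The ER stress response element (ERSE) reads CCAAT, 9 bases of any kind and CCACG, and is bound by NF-Y together with ATF6. ERSE-II reads ATTGG, 1 base and CCACG, and the composite site of C/EBP and ATF factors, which ATF4 uses, was searched as TGATGNAA. Of the 32 members 27 had a promoter in the RefSeq table of GRCm38.p6 (250 bases before to 50 after the annotated start), and Atf6, Creb3l1, Ern2, Hyou1 and Manf had none there. On either strand, ERSE was found in 8 of these 27 members (Calr, Canx, Creld2, Dnajc3, Hsp90b1, Hspa5, Pdia6 and Syvn1) and in 0.119% of all 32851 promoters of the table. ERSE-II was in 1 member, Herpud1, and in 0.0365% of all promoters. TGATGNAA was in 4 members (Asns, Chac1, Herpud1 and Trib3) and in 3.97% of all promoters, its stricter form TGATGNAAT was in 0 members and in 0.965%, and the XBP1 core TGACGTGG was in 0 members and in 0.676%. In Trib3 the match lay after the annotated start, and in the other 3 it lay before it. A match shows the letters and not binding.

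The stretches below are a choice from the members with a match, and their genes recur in the comparisons that follow. Canx, Pdia6, Syvn1 and Trib3 recur there too and are not shown. Among them Canx and Pdia6 fell in COL BRAF, and Pdia6, Syvn1 and Trib3 rose in other arms. Capitals mark ERSE, read on either strand, in the first 5, ERSE-II and the composite site in Herpud1, and the composite site in Chac1 and Asns. All are written on the strand of the gene and lie before the RefSeq start. The 30 bases of Hspa5 and of Asns fall in a first exon of some GENCODE M21 transcripts of the same gene, and the other stretches fall in no annotated exon of their gene.
Hspa5 (chr2:34772019-34772048, plus strand): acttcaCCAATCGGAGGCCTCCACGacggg
Hsp90b1 (chr10:86705523-86705666, minus strand): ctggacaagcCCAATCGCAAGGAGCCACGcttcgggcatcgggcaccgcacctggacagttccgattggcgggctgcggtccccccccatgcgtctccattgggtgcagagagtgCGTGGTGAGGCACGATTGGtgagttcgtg
Calr (chr8:84847030-84847139, minus strand): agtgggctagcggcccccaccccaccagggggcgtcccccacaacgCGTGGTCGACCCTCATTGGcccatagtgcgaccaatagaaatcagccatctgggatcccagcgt
Creld2 (chr15:88819474-88819583, plus strand): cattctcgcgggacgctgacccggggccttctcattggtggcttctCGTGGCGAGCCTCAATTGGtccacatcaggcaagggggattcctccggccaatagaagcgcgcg
Dnajc3 (chr14:118937781-118937890, plus strand): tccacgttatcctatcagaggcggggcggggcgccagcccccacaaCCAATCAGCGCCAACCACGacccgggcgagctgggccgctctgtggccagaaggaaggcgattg
Herpud1 (chr8:94386297-94386406, plus strand): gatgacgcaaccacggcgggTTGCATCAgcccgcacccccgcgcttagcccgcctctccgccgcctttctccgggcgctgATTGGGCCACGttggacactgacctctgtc
Chac1 (chr2:119350998-119351107, plus strand): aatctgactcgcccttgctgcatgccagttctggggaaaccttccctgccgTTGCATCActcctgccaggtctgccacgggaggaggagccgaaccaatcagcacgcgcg
Asns (chr6:7693214-7693243, minus strand): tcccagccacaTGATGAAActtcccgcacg

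More members rose with BRAFV600E alone in SI organoids than in any other arm. So did more of all tested genes, and the counts of the arms were not tested against each other. Comparing on with off, 24 of 32 members rose and 1 fell, against 17.5% of all tested genes that rose and 14.2% that fell (edgeR quasi-likelihood test, Benjamini-Hochberg adjusted p under 0.05 over all genes, as in all comparisons below, with fold changes given as log2 ± standard error). Their median log2 fold change was 0.55, beside -0.06 over all genes. The largest changes were those of targets of the PERK and ATF4 branch. Trib3, a pseudokinase that restrains ATF4 signalling, was at 23.8 and 21.5 CPM in the off libraries and at 83.6 and 114 CPM in the on libraries (2.13 ± 0.16, adjusted p = 1.39e-06). Ddit3, whose product CHOP promotes cell death under lasting stress, went from 15.9 and 15.6 to 49.0 and 75.3 CPM (1.98 ± 0.20, adjusted p = 1.18e-05). Chac1, which degrades glutathione, went from 7.97 and 6.79 to 21.5 and 31.1 CPM (1.83 ± 0.28, adjusted p = 0.00033). In all 3 genes both on libraries lay far above both off libraries, and the on libraries differed from each other more than the off libraries did. Ddit3 shares 68 exonic bases with Mars on the opposite strand, and whether strand was used in counting is not given in the sources used here.

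Among the transcription factors of SI BRAF organoids, Atf4 rose from 201 and 181 to 277 and 327 CPM (0.66 ± 0.14, adjusted p = 0.00265), and Creb3l1, an ER membrane factor related to ATF6, from 7.53 and 9.45 to 19.2 and 20.8 CPM (1.23 ± 0.20, adjusted p = 0.000449). Xbp1 did not pass the test (104 and 108 CPM off and 115 and 128 on, 0.20 ± 0.11, adjusted p = 0.189). Of the sensors, Eif2ak3 (0.69 ± 0.19), Ern2 (0.78 ± 0.24) and Atf6 (0.56 ± 0.15) rose. Ern1, the ubiquitous form of IRE1, had lower values in on libraries (20.05 and 16.9 CPM off, 10.8 and 15.3 on) and did not pass (-0.50 ± 0.19, adjusted p = 0.0558).

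Of the 13 chaperones and foldases 9 rose, 1 fell and 3 did not pass in SI BRAF organoids, with a median of 0.45. Hspa5 (BiP), the main ER chaperone and a brake on all sensors, went from 646 and 649 to 1084 and 1170.4 CPM (0.80 ± 0.09, adjusted p = 2.29e-05). Its cochaperone Dnajb9, a classical target of XBP1, showed the largest rise of the group, from 17.7 and 16.0 to 35.9 and 44.4 CPM (1.25 ± 0.19, adjusted p = 0.000281). On and off libraries did not overlap for either gene. The lectin chaperone Calr (0.65 ± 0.10), the nucleotide exchange factor Hyou1 (0.62 ± 0.12), Creld2 (0.53 ± 0.17), the cochaperone Dnajc3 (0.51 ± 0.12), the secreted stress factor Manf (0.45 ± 0.10), Hsp90b1, which is GRP94 (0.42 ± 0.10), and the disulfide isomerase Pdia4 (0.35 ± 0.11) rose by less. The disulfide isomerase Pdia3, partner of the lectin chaperones, was the only member that fell, from 423 and 390.5 to 251 and 293 CPM (-0.58 ± 0.19, adjusted p = 0.0357). Canx, Pdia6 and Sdf2l1 had values between -0.02 and 0.12 and did not pass.

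All 4 genes of ER-associated degradation rose in SI BRAF organoids. Edem1, which marks misfolded glycoproteins for disposal, went from 52.1 and 45.6 to 80.5 and 102 CPM (0.90 ± 0.15, adjusted p = 0.000595). The ubiquitin ligase Syvn1 (HRD1) went from 29.9 and 34.1 to 45.2 and 66.1 CPM (0.80 ± 0.17, adjusted p = 0.00314), and its partner Sel1l from 61.1 and 69.2 to 85.2 and 117 CPM (0.64 ± 0.15, adjusted p = 0.0062). Herpud1, an adaptor of the ligase complex, rose by the smallest amount of the 4 (0.47 ± 0.11). On libraries were above off libraries for each of the 4 genes.

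Of the 5 ATF4 enzymes 3 rose in SI BRAF organoids. Asns (asparagine synthetase) went from 110.1 and 113 to 203 and 155 CPM (0.68 ± 0.14, adjusted p = 0.00281), the mitochondrial folate enzyme Mthfd2 from 54.0 and 56.3 to 83.1 and 77.6 (0.54 ± 0.15, adjusted p = 0.0163), and Psat1 of serine synthesis from 58.6 and 57.6 to 89.2 and 69.3 (0.45 ± 0.14, adjusted p = 0.0231). For these 3 enzymes the off levels of this culture were the lowest of the SI cultures. For all 3 both on libraries were below the mean of the BRAFp53 on group (227, 119 and 114 CPM). Phgdh, which opens serine synthesis, differed strongly between the duplicates, with 59.0 and 67.4 CPM off and 84.6 and 36.9 CPM on (-0.05 ± 0.26, adjusted p = 0.903). Shmt2 differed in the same direction and by less (125 and 136 off, 132 and 89.8 on). Its higher on library was at 1.47 times the lower one, against 2.29 times for Phgdh. In both genes the library that stood apart by Xist was the higher one, as it was for the other 3 enzymes.

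Without SI BRAF on replicate 1, 23 members were called in this arm, 21 up and 2 down, against 15.4% and 14.3% of all genes tested in that fit. Of the 25 called with it 21 remained and no sign changed. Trib3 (2.36), Ddit3 (2.28), Chac1 (2.10), Atf4 (0.80), Hspa5 (0.87), Dnajb9 (1.42), Edem1 (1.08) and Asns (0.49) were still called. Mthfd2, Psat1, Pdia4 and Pdia3 lost the call (0.51, 0.27, 0.29 and -0.46). Phgdh (-0.76 ± 0.15, adjusted p = 0.00215) and Shmt2 (-0.52 ± 0.13, adjusted p = 0.00899) then fell, opposite in direction to Asns. Leaving out any 1 of the 4 libraries gave 15 to 23 called members, the fewest without SI BRAF off replicate 1, and 14 members stayed called in each of these fits, Asns, Atf4, Calr, Chac1, Creb3l1, Ddit3, Dnajb9, Dnajc3, Edem1, Hspa5, Hyou1, Manf, Syvn1 and Trib3.

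**Figure D1:**
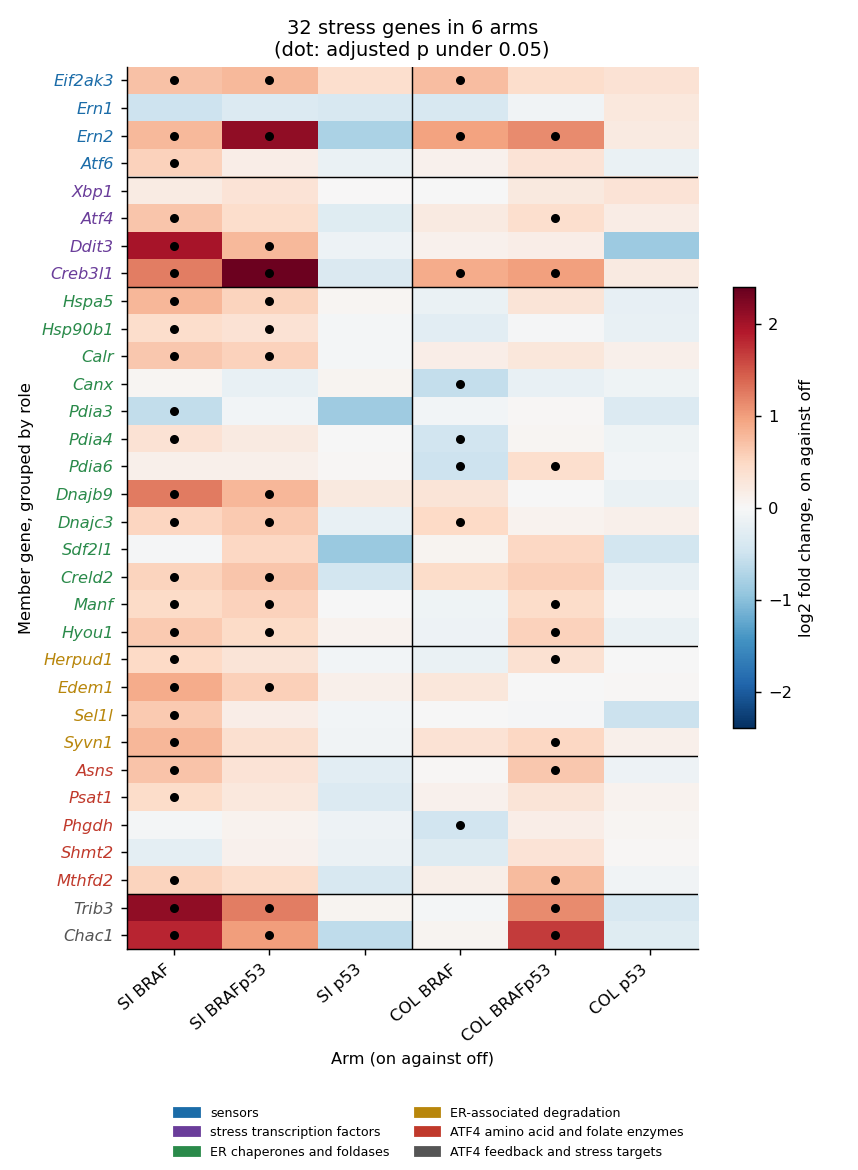
Log2 fold change of on against off (colour, red higher and blue lower in on organoids) for the 32 members (rows, grouped by role) in the 6 arms (columns), with a dot where the adjusted p was under 0.05. SI BRAF holds 25 dots, SI BRAFp53 15, COL BRAFp53 12, COL BRAF 8 and the p53 arms 0.

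With both mutations in SI organoids, 15 members rose and 0 fell, against 6.98% and 4.53% of all tested genes (median 0.42 beside -0.03 over all genes). Creb3l1 and Ern2 changed most. Creb3l1 went from 6.12 and 5.57 to 26.9 and 33.1 CPM (2.36 ± 0.20, adjusted p = 1.00e-05), and Ern2, the IRE1 form of mucus-producing cells, from 6.71 and 8.72 to 26.2 and 40.7 CPM (2.12 ± 0.24, adjusted p = 0.000109). Trib3 rose from 24.4 and 20.5 to 48.7 and 56.1 CPM (1.22 ± 0.16, adjusted p = 0.000333), Chac1 from 8.57 and 7.35 to 12.6 and 19.3 (1.003 ± 0.28, adjusted p = 0.036) and Ddit3 from 21.999 and 16.4 to 28.9 and 36.9 (0.78 ± 0.20, adjusted p = 0.0234). For all 5 genes both on libraries lay above both off libraries. Eif2ak3 rose too (0.78 ± 0.19), while Atf4 (0.42 ± 0.14, adjusted p = 0.0719), Xbp1 (0.32 ± 0.11, adjusted p = 0.0723), Atf6 (0.16 ± 0.15) and Ern1 (-0.33 ± 0.19) did not pass.

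Of the 13 chaperones 8 rose and 0 fell in SI BRAFp53 organoids, with a median of 0.51. Hspa5 went from 758 and 776 to 1093 and 1143 CPM (0.54 ± 0.09, adjusted p = 0.00145) and Dnajb9 from 16.0 and 20.4 to 28.6 and 34.7 CPM (0.80 ± 0.19, adjusted p = 0.0155), again without overlap of on and off libraries. Creld2 (0.67 ± 0.17), Dnajc3 (0.62 ± 0.12), Manf (0.55 ± 0.10), Calr (0.55 ± 0.10), Hyou1 (0.46 ± 0.12) and Hsp90b1 (0.35 ± 0.10) made up the rest. Of the degradation genes only Edem1 was called (0.57 ± 0.15), and the other 3 had values of 0.17 to 0.38. None of the 5 ATF4 enzymes passed in this arm, and their median was 0.26. Asns stood at 186 and 173 CPM off and 235 and 219 on (0.34 ± 0.14, adjusted p = 0.16).

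Over all genes fewer calls were made in each fit that left out a single library of this arm. The count of called members was lower in most of these fits too. It was 6 without SI BRAFp53 on replicate 2, 7 without SI BRAFp53 off replicate 1 and 9 without SI BRAFp53 off replicate 2, and 15 without SI BRAFp53 on replicate 1. Calr, Creb3l1, Ern2, Hspa5 and Trib3 were called in each of these 4 fits.

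The 2 SI responses differed in 4 members, 2 higher and 2 lower with BRAFp53 than with BRAF, against 1.93% and 6.28% of all tested genes. The share of members that was lower was thus at that of all genes. Ern2 (1.34 ± 0.34, adjusted p = 0.0308) and Creb3l1 (1.13 ± 0.28, adjusted p = 0.027) responded more with both mutations, and Ddit3 (-1.20 ± 0.28, adjusted p = 0.0196) and Trib3 (-0.91 ± 0.23, adjusted p = 0.0304) responded less. In the off libraries the 2 cultures were close for Trib3 (22.6 and 22.5 CPM on average) and Ddit3 (15.7 and 19.2), so that the difference lay in the on libraries (98.9 and 52.4 CPM for Trib3, 62.2 and 32.9 for Ddit3). Chac1 pointed the same way and did not pass (-0.83 ± 0.40, adjusted p = 0.236). For the 13 chaperones the differences ran from -0.45 for Dnajb9 to 0.53 for Sdf2l1, and none passed. Without SI BRAF on replicate 1, Creb3l1 (1.07), Ddit3 (-1.49) and Trib3 (-1.12) were still called, Ern2 was not (1.22), and Phgdh (0.86), Shmt2 (0.63) and Sel1l (-0.69) were added, while 5.19% of all tested genes had a higher and 6.63% a lower difference in that fit. The count was 2 without SI BRAF on replicate 2, SI BRAF off replicate 1 or SI BRAFp53 on replicate 2, and 0 without SI BRAF off replicate 2 or SI BRAFp53 off replicate 1.

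In colonic organoids with BRAFV600E alone, few of these genes changed, and they did so in both directions. In COL BRAF 4 members rose and 4 fell, against 10.3% and 9.61% of all tested genes, so that the shares of members were close to those of all genes. The median was 0.04 beside -0.01 over all genes. Ern2 rose from 53.1 and 54.4 to 106 and 104 CPM (0.96 ± 0.14, adjusted p = 0.000806) and Creb3l1 from 42.4 and 36.1 to 70.7 and 75.0 CPM (0.89 ± 0.18, adjusted p = 0.00423), in both cases with on libraries well above off libraries. Eif2ak3 (8.52 and 8.64 CPM off, 16.4 and 12.2 on, 0.74 ± 0.24, adjusted p = 0.0488) and Dnajc3 (38.5 and 40.7 off, 63.0 and 47.7 on, 0.48 ± 0.15, adjusted p = 0.037) were the other 2 that rose.

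The chaperones of COL BRAF organoids held 1 gene that rose and 3 that fell, with a median of -0.10. Canx, the membrane-bound lectin chaperone, fell from 771 and 772 to 529 and 505 CPM (-0.58 ± 0.09, adjusted p = 0.00117), Pdia6 from 404 and 401 to 281 and 292 (-0.49 ± 0.11, adjusted p = 0.00812) and Pdia4 from 169.6 and 176 to 128 and 123 (-0.46 ± 0.13, adjusted p = 0.0282). Phgdh was the fourth member that fell (279.8 and 245 CPM off, 175 and 209 on, -0.45 ± 0.13, adjusted p = 0.033). Off libraries were above on libraries for all 4. Hspa5 stood at 695 and 759 CPM off and 656 and 653 on (-0.15 ± 0.12, adjusted p = 0.416).

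None of the ATF4 targets among the 32 genes rose in COL BRAF organoids. Trib3 was at 16.7 and 11.8 CPM off and 14.5 and 13.0 on (-0.05 ± 0.27, adjusted p = 0.933), Chac1 at 16.2 and 14.1 off and 14.4 and 17.3 on (0.07 ± 0.23, adjusted p = 0.888), and Ddit3 at 29.9 and 34.1 off and 33.2 and 35.2 on (0.10 ± 0.24, adjusted p = 0.843). On and off values lay close together or overlapped in these 3 genes. Atf4 (0.21 ± 0.10), Asns (0.02 ± 0.10) and Mthfd2 (0.15 ± 0.12) did not pass either. Without COL BRAF on replicate 1 the count of called members was 3, without COL BRAF off replicate 1 or off replicate 2 it was 4, and Canx, Creb3l1 and Ern2 were called in each fit.

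With both mutations, colonic organoids showed 12 members that rose and 0 that fell, against 9.95% and 7.76% of all tested genes (median 0.32 beside -0.04 over all genes). Chac1 went from 4.84 and 5.21 to 18.6 and 13.6 CPM (1.68 ± 0.23, adjusted p = 0.000726) and Trib3 from 6.02 and 7.77 to 14.0 and 16.4 CPM (1.14 ± 0.27, adjusted p = 0.0133). Atf4 itself rose by a smaller amount, from 181 and 211 to 255 and 264 CPM (0.41 ± 0.10, adjusted p = 0.0155). Of the 5 ATF4 enzymes 2 rose, Mthfd2 from 54.6 and 63.8 to 95.4 and 104 CPM (0.75 ± 0.12, adjusted p = 0.00184) and Asns from 149 and 142 to 218 and 239 CPM (0.65 ± 0.10, adjusted p = 0.00117). The other 3 enzymes were at 0.16 to 0.32 and did not pass. Ddit3 did not pass, and its libraries overlapped (15.0 and 18.9 CPM off, 22.8 and 15.3 on, 0.17 ± 0.24, adjusted p = 0.685).

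In the same COL BRAFp53 organoids Ern2 went from 48.7 and 68.5 to 127 and 129 CPM (1.13 ± 0.14, adjusted p = 0.000374) and Creb3l1 from 35.2 and 47.7 to 71.7 and 92.3 CPM (0.98 ± 0.18, adjusted p = 0.00287). Of the chaperones 3 of 13 rose, Hyou1 (0.56 ± 0.11, adjusted p = 0.00482), Manf (0.43 ± 0.12, adjusted p = 0.0258) and Pdia6 (0.41 ± 0.11, adjusted p = 0.0233), with a group median of 0.28. Hspa5 (712 and 634 CPM off, 762 and 897 on, 0.30 ± 0.12, adjusted p = 0.096) and Dnajb9 (-0.0013 ± 0.16) were not among them. The chaperones thus rose in fewer genes than in the SI arms, with no test between the counts. Of the degradation genes Syvn1 (0.50 ± 0.15) and Herpud1 (0.37 ± 0.11) rose, and Edem1 (-0.0045 ± 0.12) and Sel1l (-0.03 ± 0.16) did not pass. The count was 6 without COL BRAFp53 on replicate 2, 7 without COL BRAFp53 off replicate 1 and 10 without either other library, and Asns, Chac1, Creb3l1, Ern2, Hyou1 and Mthfd2 were called in each fit.

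**Figure D2:**
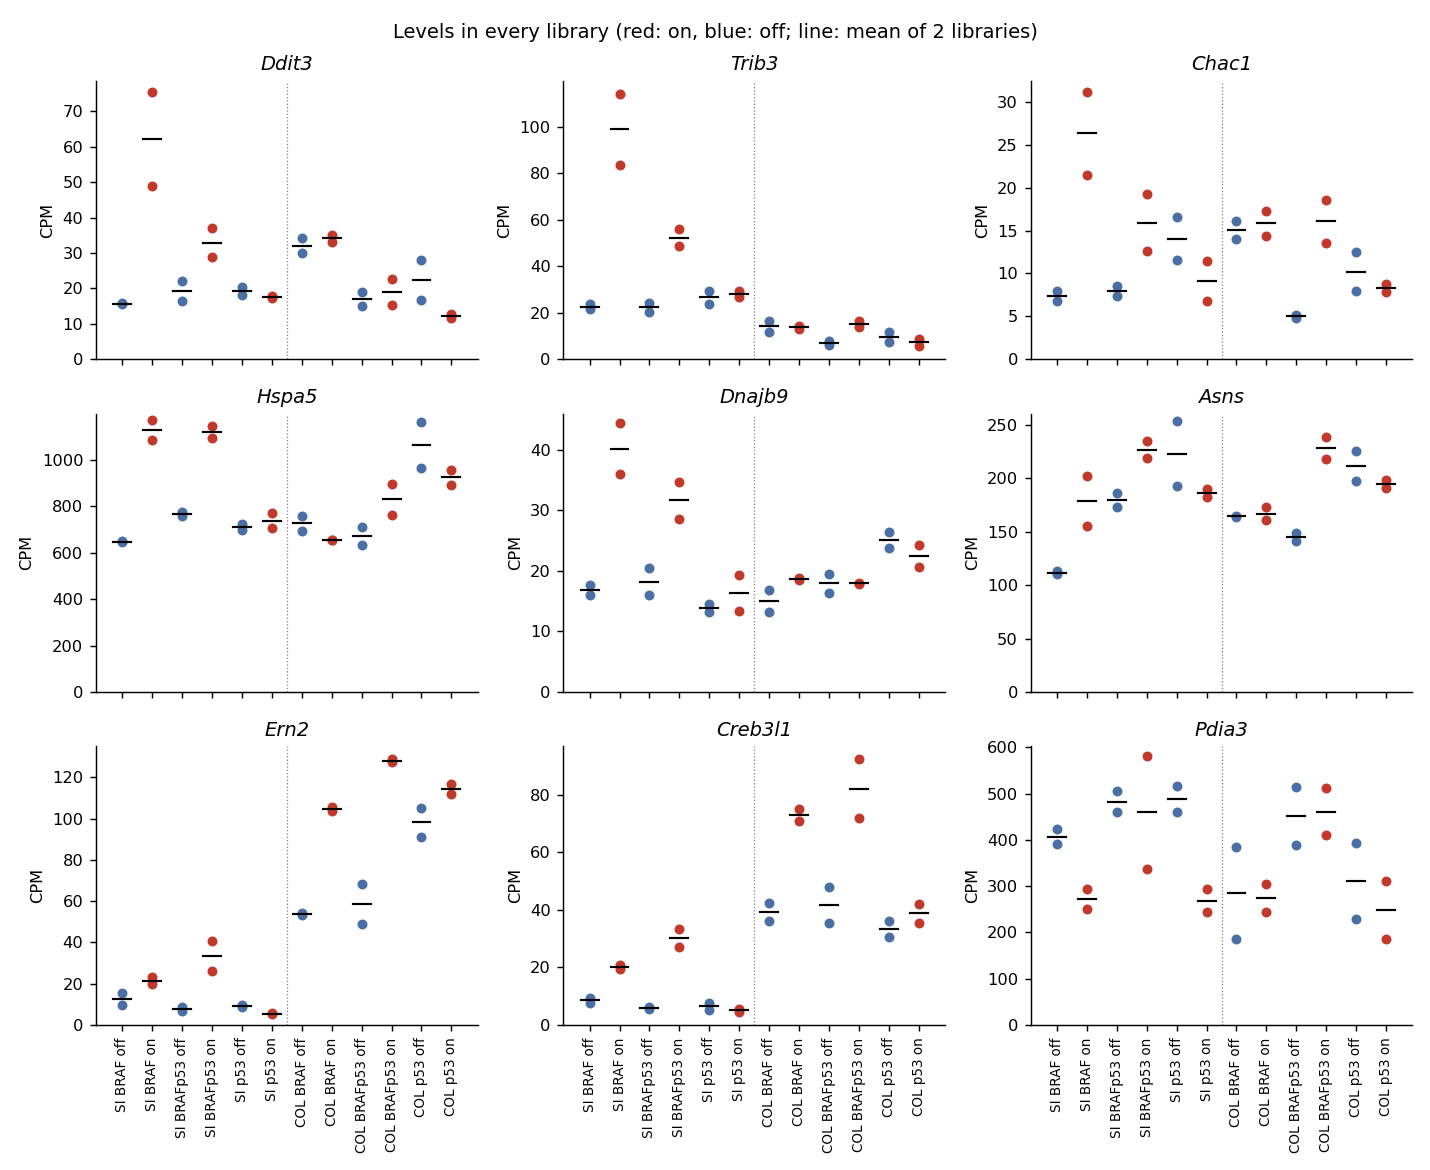
Normalised level (CPM, linear axis from 0) of 9 members in each of the 24 libraries, off in blue and on in red, with a line at the mean of the 2 libraries of a group. Ddit3, Trib3 and Chac1 are highest in SI BRAF on libraries, Ern2 and Creb3l1 are higher in COL off than in SI off libraries, and Pdia3 shows wide gaps between duplicates.

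The responses of the COL BRAFp53 and COL BRAF cultures differed in 2 members, both higher with BRAFp53, against 0.532% of all tested genes higher and 0.374% lower. They were Chac1 (1.61 ± 0.33, adjusted p = 0.0489) and Pdia6 (0.90 ± 0.15, adjusted p = 0.0404). For Chac1 the on levels of the 2 cultures were alike, at 16.1 and 15.9 CPM on average, and the off levels were apart, at 5.03 CPM in BRAFp53 and 15.1 CPM in BRAF. Trib3 showed the same arrangement (15.2 and 13.7 CPM on, 6.89 and 14.2 off) and its difference did not pass (1.19 ± 0.38, adjusted p = 0.126). Pdia6 differed in both states (504 to 669.9 CPM with BRAFp53, 403 to 287 with BRAF). The median of the 32 differences was 0.23, beside -0.03 over all genes. The count was 1 without COL BRAFp53 on replicate 1 or COL BRAFp53 off replicate 1 and 0 without any of the other 6 libraries of these arms. Chac1 was thus called in 0 of the 8 fits that left out 1 library and Pdia6 in 2 of 8, and with the replicate block neither was called.

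With p53R172H alone no member was called in either tissue. In COL p53 organoids the edgeR count was 0, against 0.142% of all tested genes, with 1 call by DESeq2 (2.02% of all genes given an adjusted p) and 0 by limma-voom (0.195%). At an unadjusted p under 0.05 there were 3 of 32 members, near the 8.34% of all tested genes. In SI p53 organoids it was 0, against 0% of all tested genes, with 2 calls by DESeq2 (0.544%) and 0 by limma-voom (0.00593%), and 7 of 32 members were at an unadjusted p under 0.05, against 5.18% of all tested genes. Medians were -0.08 and -0.10. The widest value in COL p53 was that of Ddit3, at 27.9 and 16.8 CPM off and 11.6 and 12.7 on (-0.88 ± 0.24, adjusted p = 0.236). In SI p53 the widest were Pdia3 (459.6 and 516 off, 244 and 293 on, -0.86 ± 0.19, adjusted p = 0.293) and Sdf2l1 (54.0 and 50.5 off, 23.2 and 33.2 on, -0.89 ± 0.23, adjusted p = 0.46). Both genes had lower on libraries in that culture.

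Whether the tissues responded differently was tested in 1 fit of all 24 libraries. For BRAF alone 15 members responded less in COL than in SI and 0 responded more, against 7.40% of all tested genes with a lower and 3.31% with a higher response in COL. Trib3 (-2.22 ± 0.33, adjusted p = 0.000245), Ddit3 (-1.93 ± 0.34, adjusted p = 0.00101) and Chac1 (-1.81 ± 0.40, adjusted p = 0.00617) differed by the most. The median difference of the 32 members was -0.51, beside -0.01 over all genes. Of the chaperones 9 of 13 differed, namely Hspa5 (-0.99 ± 0.15), Dnajb9 (-0.99 ± 0.27), Pdia4 (-0.86 ± 0.18), Hyou1 (-0.79 ± 0.15), Hsp90b1 (-0.71 ± 0.17), Canx (-0.66 ± 0.13), Pdia6 (-0.65 ± 0.16), Manf (-0.59 ± 0.15) and Calr (-0.53 ± 0.13). Edem1 (-0.68 ± 0.20), Herpud1 (-0.68 ± 0.16) and Asns (-0.70 ± 0.18) completed the list. ATF4 targets, chaperones and degradation genes were thus all represented. Ern2 (0.14 ± 0.29) and Creb3l1 (-0.39 ± 0.27) did not pass, and Eif2ak3 had a difference near 0 (5e-05 ± 0.32).

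Without SI BRAF on replicate 1, 16 members differed, all lower in COL, against 5.76% of all tested genes that were lower and 2.81% that were higher. Of the 15, 13 remained, Asns (-0.51) and Pdia6 (-0.52) lost the call, and Atf6 (-0.71), Sel1l (-0.91) and Syvn1 (-0.76) gained it. The count was 9 without SI BRAF off replicate 2 and 10 to 14 without any other of the remaining libraries. Canx, Chac1, Ddit3, Hsp90b1, Hspa5, Hyou1, Pdia4 and Trib3 were called in all 8 fits that left out 1 library.

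For BRAFp53 the tissues differed in 1 member, Creb3l1, which responded less in COL (-1.41 ± 0.27, adjusted p = 0.00769), against 2.13% of all tested genes with a lower and 1.39% with a higher response in COL. The share of members was thus near that of all genes, and these SI and COL cultures also differed in Xist and Y-linked transcripts. The level of Creb3l1 was higher in COL in both states, at 71.7 and 92.3 CPM on and 35.2 and 47.7 off against 26.9 and 33.1 on and 6.12 and 5.57 off in SI. The difference was not called without SI BRAFp53 on replicate 2, and the count was 2 without COL BRAFp53 off replicate 1 or without SI BRAFp53 on replicate 1. Chac1 (0.64 ± 0.40, adjusted p = 0.448), Trib3 (-0.11 ± 0.33, adjusted p = 0.943), Ddit3 (-0.65 ± 0.34, adjusted p = 0.335) and Hspa5 (-0.28 ± 0.15, adjusted p = 0.347) did not pass.

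**Figure D3:**
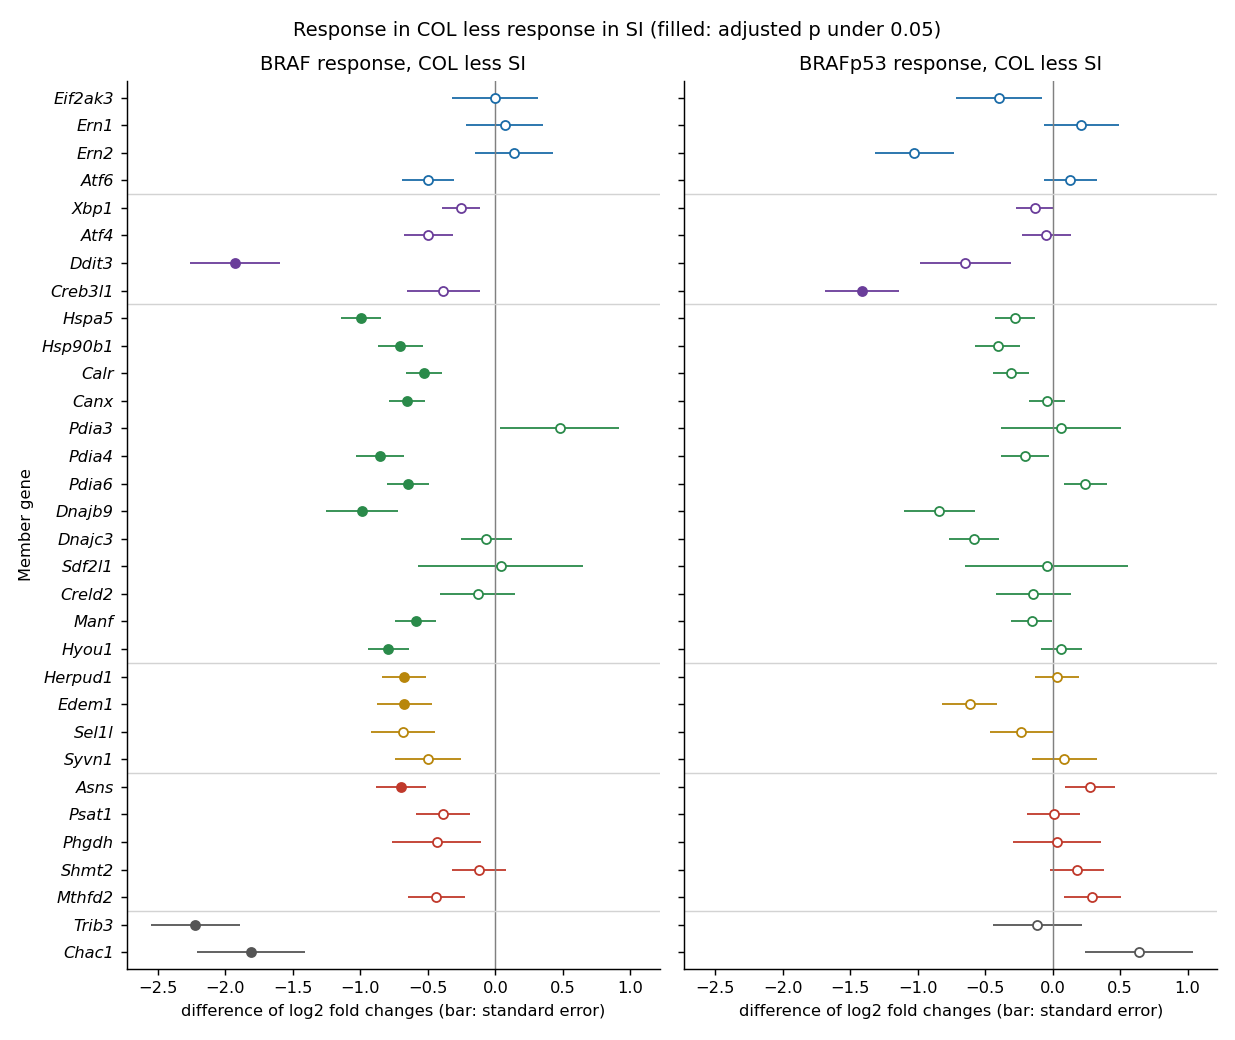
Difference of the log2 fold changes, COL less SI, for the 32 members (rows), with BRAF alone in the left and BRAFp53 in the right panel. Bars are standard errors and filled points have an adjusted p under 0.05, which holds for 15 members on the left, all below 0, and for Creb3l1 alone on the right.

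The off organoids of the tissues differed in 9 members. The 2 off libraries of each culture were summed, and 3 COL cultures were compared with 3 SI cultures. Of the SI cultures 2 differed from the COL cultures in Xist and Y-linked transcripts, and tissue, day and medium cannot be told apart here either. Of the 9 members 2 were higher in COL and 7 lower, against 17.0% and 12.6% of all tested genes. In either direction 28.1% of members and 29.6% of all tested genes were called, so the share of members was near that of all genes. Cultures are given in the order BRAF, BRAFp53 and p53, scaled over both tissues. Ern2 was at 50.9, 55.9 and 94.2 CPM in COL and at 14.4, 8.74 and 10.2 CPM in SI (2.59 ± 0.29, adjusted p = 0.00246), and Creb3l1 at 37.4, 39.6 and 31.8 CPM and 9.73, 6.63 and 7.26 CPM (2.20 ± 0.19, adjusted p = 0.00126). Each COL culture was above each SI culture for both genes.

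Lower in COL off organoids were Trib3 (13.6, 6.58 and 9.20 CPM in COL, 25.4, 25.5 and 30.5 in SI, -1.47 ± 0.27, adjusted p = 0.00913), Xbp1 (81.8, 54.5 and 38.7 and 120.0, 113 and 111, -0.97 ± 0.26, adjusted p = 0.0295) and the chaperones and cochaperones Sdf2l1 (-1.15 ± 0.17), Creld2 (-1.01 ± 0.15), Dnajc3 (-0.70 ± 0.14) and Manf (-0.55 ± 0.14). Edem1 was lower too (-0.69 ± 0.14). All 3 COL cultures lay below all 3 SI cultures for Trib3 and Xbp1. Creb3l1, Creld2, Edem1, Ern2, Sdf2l1 and Trib3 were called in each fit that left out 1 culture, and Dnajc3, Manf and Xbp1 lost the call in at least 1. Hspa5 (-0.04 ± 0.21, adjusted p = 0.911), Atf4 (-0.41 ± 0.17, adjusted p = 0.104) and Ddit3 (0.14 ± 0.24, adjusted p = 0.691) did not pass.

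Per kilobase of exons, the scale on which genes can be compared, mean off levels of the members ran from 1.54 to 190.0 CPM per kilobase in SI and from 1.53 to 185.1 in COL. Hspa5 had the highest mean in both tissues, and with Calr and Canx it made up the top 3 in both. On this scale Atf4 stood at 105 in SI and 78.5 in COL, far above Ddit3 (11.97 and 13.2), Trib3 (12.8 and 4.61) and Chac1 (6.77 and 5.90). The sensors Eif2ak3 (1.54 and 1.59) and Ern1 (2.39 and 1.53) were at the bottom of the order in both tissues. Ern2 ranked 29th of 32 in SI and 15th in COL.

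The off levels of ATF4 enzymes also differed among the SI cultures. Phgdh was at 72.0, 187 and 201 CPM, Asns at 126, 204 and 254, Psat1 at 65.6, 108 and 131 and Mthfd2 at 62.5, 101 and 141 in SI BRAF, BRAFp53 and p53 off organoids. The SI BRAF culture was the lowest for all 4. With 1 culture per genotype, the allele and the donor cannot be told apart here.

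**Figure D4:**
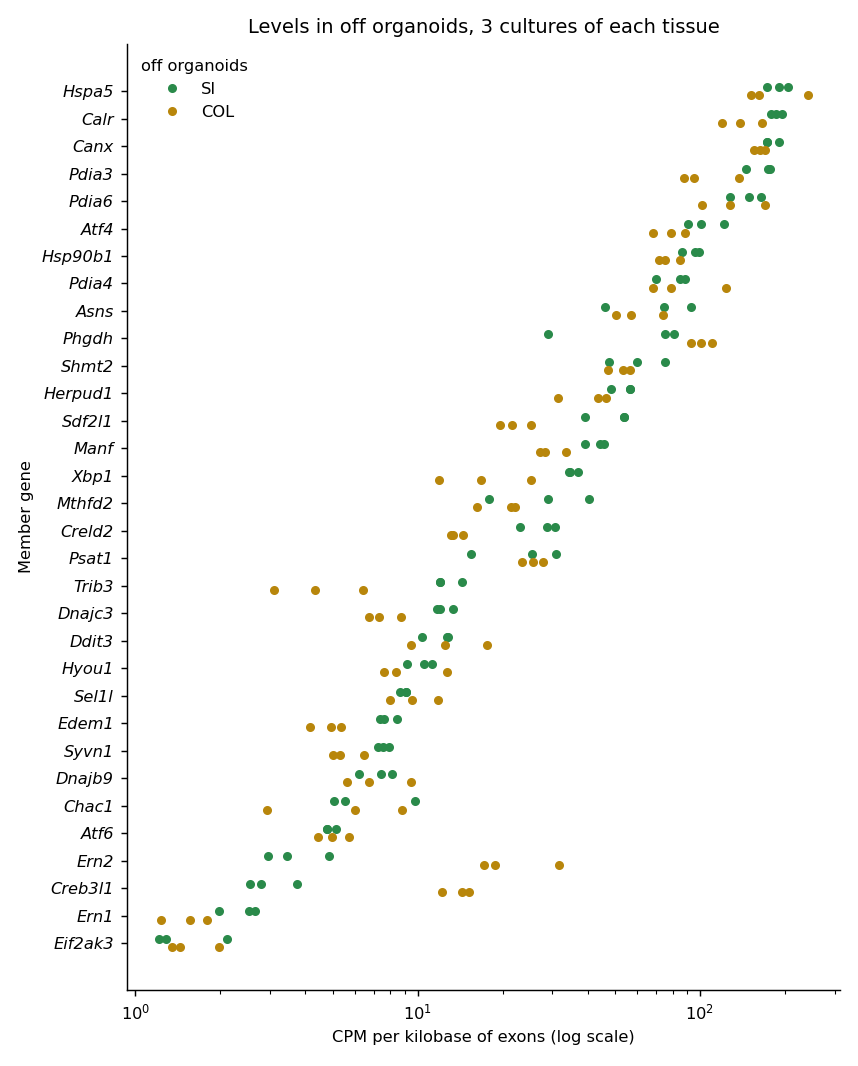
Levels in off organoids as CPM per kilobase of exons (log axis), 1 point for each of 3 SI (green) and 3 COL (ochre) cultures, with members ordered by their mean in SI. Ern2 and Creb3l1 lie farther to the right in all 3 COL cultures than in the SI cultures.

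Chaperones and ATF4 amino acid targets were set side by side in each arm, with no test between the groups. In SI BRAF the 13 chaperones had 9 called up and 1 down with a median of 0.45, and the 5 enzymes had 3 up and 0 down with a median of 0.45. In SI BRAFp53 the chaperones had 8 up and 0 down (median 0.51) and the enzymes 0 up and 0 down (median 0.26). Without SI BRAF on replicate 1, the medians in SI BRAF were 0.46 for the chaperones and 0.27 for the enzymes. In that fit Asns, Mthfd2 and Psat1 stayed positive (0.49, 0.51 and 0.27), while Phgdh and Shmt2 were at -0.76 and -0.52. The calls of Mthfd2 and Psat1 were also lost without other libraries of that arm. COL BRAF showed 1 up and 3 down among the chaperones (median -0.10) and 0 up and 1 down among the enzymes (median 0.02). In COL BRAFp53 the chaperones had 3 up and 0 down (median 0.28) and the enzymes 2 up and 0 down (median 0.32). Over all tested genes the shares that rose and fell were 17.5% and 14.2% in SI BRAF, 6.98% and 4.53% in SI BRAFp53, 10.3% and 9.61% in COL BRAF, and 9.95% and 7.76% in COL BRAFp53, so the 1 of 13 chaperones that rose in COL BRAF was near the share of all genes. The pair Trib3 and Chac1 exceeded both groups in 3 of these 4 arms, with medians of 1.98, 1.11 and 1.41 in SI BRAF, SI BRAFp53 and COL BRAFp53, and was at 0.01 in COL BRAF.

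**Figure D5:**
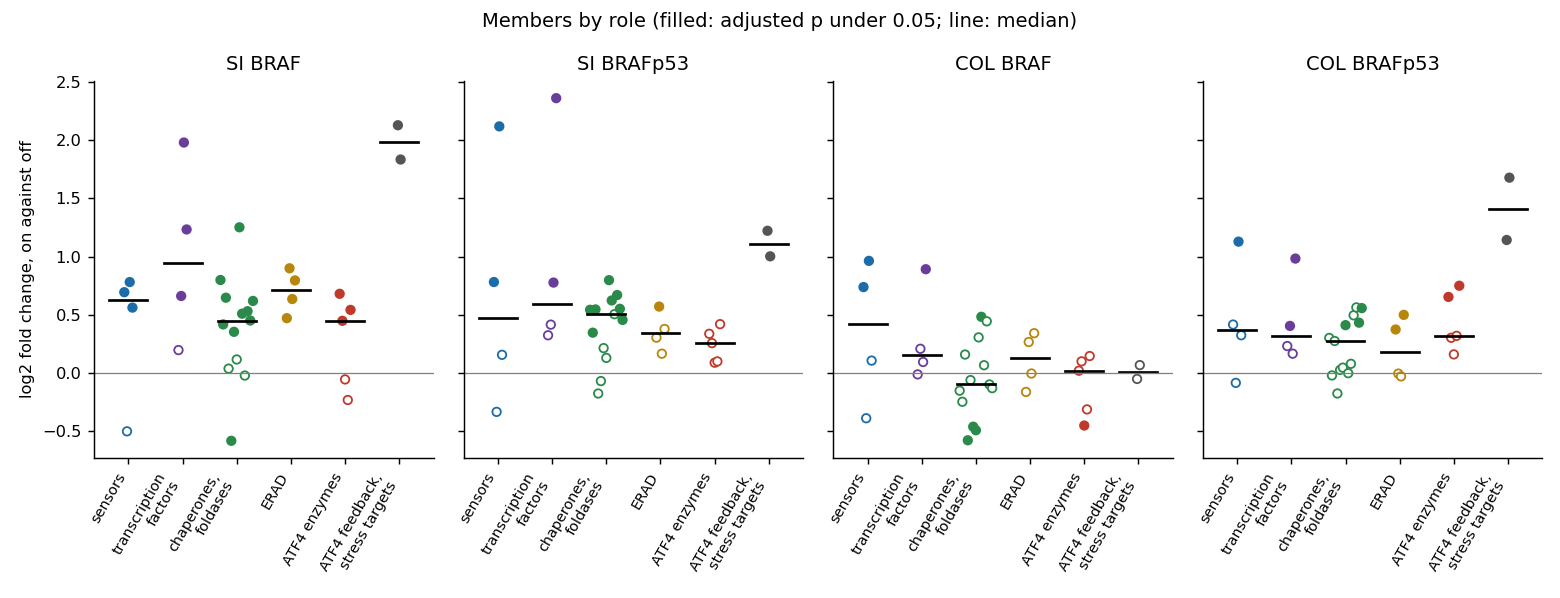
Log2 fold change of on against off for each member, by role group, in the 4 arms with BRAFV600E. Points are members (filled where the adjusted p was under 0.05) and lines are group medians, which for Trib3 and Chac1 reach 1.98 in SI BRAF and lie at 0.01 in COL BRAF.

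Across the 4 arms with BRAFV600E, Ern2 and Creb3l1 rose in all 4. Eif2ak3, Dnajc3, Manf, Hyou1, Trib3 and Chac1 rose in 3 arms, 12 members in 2, 5 members in 1 and 7 members (Ern1, Xbp1, Canx, Pdia3, Sdf2l1, Phgdh and Shmt2) in 0. Of the 16307 genes tested in both tissues, 2.51% rose in 4 arms, 3.42% in 3, 6.57% in 2, 13.8% in 1 and 73.7% in 0, and the 2 members in all 4 arms were 6.25% of the 32. Mthfd2, Psat1 and Pdia4 lost their rise in SI BRAF without SI BRAF on replicate 1, which left 6 members in 3 arms, 11 in 2, 4 in 1 and 9 in 0, while the shares of all genes became 2.44% in 4 arms, 3.40% in 3, 6.38% in 2, 13.5% in 1 and 74.3% in 0. Duplicates lay farthest apart for Sdf2l1, whose higher library was at 2.85 times the lower one in COL BRAF off organoids. Next came Phgdh, at 2.29 times in SI BRAF on organoids, and Pdia3, at 2.08 times in COL BRAF off organoids. The median ratio over the 12 groups was 1.43 for Sdf2l1, 1.25 for Pdia3 and 1.08 for Hspa5.

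Markers of secretory cells moved in the same arms. The 12 goblet cell markers summed to 969.9 and 938 CPM in SI BRAF off and 1464 and 1671 CPM in on libraries, and to 577 and 617 off and 1791 and 2031 on in SI BRAFp53. In COL BRAF they summed to 2063 and 1934 off and 3858 and 3528 on, and in COL BRAFp53 to 1790.0 and 2216 off and 4379 and 4152 on. Of the markers tested, 4 of 11, 9 of 11, 8 of 12 and 8 of 12 rose in these arms, and in COL BRAF 1 fell. Retnlb was at 0 in every SI library. In the p53 arms, where no member was called, they summed to 457 and 429.6 CPM off and 413 and 456 on in SI and to 3134 and 3134 off and 2552 and 3688 on in COL. In bulk RNA, more cells of a type and more RNA per cell cannot be told apart, and the part of goblet cells in the rise of Ern2, Creb3l1 and the chaperones was not tested. Markers of Paneth cells moved otherwise, with 5 of 7 lower in SI BRAF (640.5 and 626 CPM off, 233 and 201 on) and 4 of 7 higher in SI BRAFp53 (219 and 273 off, 406 and 288 on). Of the enterocyte markers 9 of 10 rose in SI BRAF (25872 and 19902 CPM off, 60470.3 and 61806 on), while 4 rose and 2 fell in SI BRAFp53, 3 rose and 3 fell in COL BRAF, and 2 rose and 2 fell in COL BRAFp53. Of the Paneth cell markers 1 rose and 0 fell in COL BRAF, and 1 rose and 1 fell in COL BRAFp53. Without SI BRAF on replicate 1 these marker counts in SI BRAF were 4, 5 and 9 again.

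Markers of epithelium in general were also higher in on organoids of the arms with BRAFV600E. The 7 markers summed to 9290.0 and 9375 CPM off and 15207 and 16967 on in SI BRAF, to 8472 and 8042 off and 11746 and 12175 on in SI BRAFp53, to 11347 and 10698 off and 27229.9 and 25690.1 on in COL BRAF, and to 11186 and 10895 off and 31679.8 and 25160.5 on in COL BRAFp53. In the same order 5, 4, 5 and 5 of 7 rose and 0 fell, and without SI BRAF on replicate 1 the count in SI BRAF was again 5. No epithelial marker was called in the p53 arms, where the sums were 8455 and 8431 off and 8009 and 8233 on in SI and 19628 and 19572 off and 28947 and 20016 on in COL. Their part in the rise of the stress genes was not tested.

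The share of mitochondrial reads, a rough sign of RNA quality or of cell state, was lower in on than in off libraries in the 3 arms with the larger stress response. It was 6.46% and 7.39% off and 3.58% and 3.94% on in SI BRAF, 4.37% and 5.92% off and 3.64% and 3.73% on in SI BRAFp53, and 6.51% and 8.84% off and 2.86% and 2.58% on in COL BRAFp53. In COL BRAF it was 5.54% and 8.14% off and 6.74% and 8.36% on. Its part in the results was not tested.

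Other genes of the same pathways were read from 8 lists of neighbours. Of all tested genes 17.5% rose and 14.2% fell in SI BRAF, 6.98% and 4.53% in SI BRAFp53, 10.3% and 9.61% in COL BRAF, and 9.95% and 7.76% in COL BRAFp53, and the counts below are to be read beside these shares. Among other ER folding genes 12 of 22 tested rose and 1 fell in SI BRAF, 11 rose and 0 fell in SI BRAFp53, 3 rose and 4 fell in COL BRAF, and 6 rose and 0 fell in COL BRAFp53. Falls outnumbered rises in COL BRAF only (4 against 3), with no test between the counts. P4hb, a disulfide isomerase, went from 2086 and 1839 to 4957 and 6024 CPM in SI BRAF (1.48 ± 0.13, adjusted p = 3.48e-06) and fell in COL BRAF (-0.33 ± 0.10, adjusted p = 0.0405). The oxidase Ero1l rose in both SI arms (1.02 ± 0.17 and 0.96 ± 0.16), and Fkbp11 in COL BRAFp53 (1.09 ± 0.17). Agr2, a disulfide isomerase that mucus-producing cells need, is outside this list and is among the 12 goblet cell markers. It rose in all 4 arms, by 1.16 ± 0.14 in SI BRAF, 2.45 ± 0.14 in SI BRAFp53, 0.75 ± 0.18 in COL BRAF and 1.43 ± 0.18 in COL BRAFp53.

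Among genes of translocation into the ER and transport to the Golgi, 8 of 21 rose and 0 fell in SI BRAF and in COL BRAFp53, 2 rose in SI BRAFp53, and in COL BRAF 0 rose and 6 fell. Kdelr3, a receptor that returns chaperones to the ER, went from 2.32 and 2.27 to 22.4 and 29.7 CPM in SI BRAF (3.50 ± 0.36, adjusted p = 1.80e-05) and from 1.22 and 3.56 to 19.8 and 23.3 in SI BRAFp53 (3.17 ± 0.36, adjusted p = 0.000109). The coat gene Sec24d rose in SI BRAF (1.79 ± 0.14), and the signal peptidase subunit Spcs2 (-0.75 ± 0.12) and the translocon gene Ssr1 (-0.79 ± 0.12) fell in COL BRAF. Of 12 other degradation genes 6 rose in SI BRAF, led by Fam8a1 (1.07 ± 0.14) and Os9 (0.97 ± 0.12), with 0 in SI BRAFp53, 2 in COL BRAF and 3 in COL BRAFp53, and none fell.

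Among other targets of the ATF4 branch, Atf3 rose in all 4 arms, by 2.45 ± 0.34 in SI BRAF, 2.15 ± 0.35 in SI BRAFp53, 0.85 ± 0.17 in COL BRAF and 0.81 ± 0.17 in COL BRAFp53. Ppp1r15a (GADD34), which reverses the phosphorylation of eIF2alpha, rose in SI BRAF (1.30 ± 0.25) and SI BRAFp53 (0.90 ± 0.25) and did not pass in COL BRAF (0.35 ± 0.24) or COL BRAFp53 (0.69 ± 0.24). Gdf15, a secreted stress factor, rose in both COL arms (2.27 ± 0.50 and 2.41 ± 0.50) and did not pass in the SI arms (-0.85 ± 0.61 and -0.28 ± 0.59). In the list of 11, of which 10 were tested in SI, 2, 5, 4 and 5 rose in SI BRAF, SI BRAFp53, COL BRAF and COL BRAFp53, the first of these counts being near the share of all genes. Among eIF2 kinases, phosphatases and ER membrane factors, Creb3l2 rose in SI BRAF (1.93 ± 0.17, adjusted p = 3.35e-06) and had a negative value in COL BRAF (-0.20 ± 0.20, adjusted p = 0.569), and the list held 6 up and 1 down, 4 and 0, 1 and 1, and 4 and 0 of 13 in the same order of arms.

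Amino acid supply moved unevenly. The cystine transporter Slc7a11 rose in all 4 arms, from 1.98 and 2.04 to 19.8 and 32.7 CPM in SI BRAF (3.70 ± 0.41, adjusted p = 3.20e-05) and from 16.5 and 18.8 to 56.1 and 49.3 CPM in COL BRAF (1.58 ± 0.17, adjusted p = 0.000112). Of the 9 transporters 3, 2, 3 and 4 rose in SI BRAF, SI BRAFp53, COL BRAF and COL BRAFp53, and Slc1a5 fell in SI BRAF (-0.70 ± 0.13). Of 12 cytosolic tRNA synthetases, which ATF4 also raises, 7, 3, 3 and 5 rose and 0 fell, Aars by 0.70 ± 0.13 in SI BRAF and Cars by 0.67 ± 0.10 in COL BRAFp53. Other amino acid and folate enzymes went the other way in part, with 2 up and 5 down of 11 tested in SI BRAF, 1 and 2 in SI BRAFp53, 0 and 6 in COL BRAF and 2 and 2 in COL BRAFp53. The 2 that rose in SI BRAF were near the share of all genes. Among them Aldh18a1, which makes the precursor of proline, fell in SI BRAF (-0.98 ± 0.15), SI BRAFp53 (-1.07 ± 0.14) and COL BRAF (-1.03 ± 0.13), while Got1 rose in SI BRAF (1.43 ± 0.12) and COL BRAFp53 (0.98 ± 0.14).

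Without SI BRAF on replicate 1, the counts that rose and fell in SI BRAF were 9 and 0 of 23 for the other folding genes, 6 and 0 for degradation, 7 and 0 for translocation and transport, 6 and 1 for the kinases and membrane factors, 2 and 0 for the other ATF4 targets, 2 and 5 for the other enzymes, 4 and 1 for the transporters, and 3 and 0 for the tRNA synthetases. P4hb (1.64), Ero1l (1.27), Agr2 (0.96), Kdelr3 (3.71), Sec24d (1.95), Fam8a1 (1.12), Os9 (1.09), Atf3 (2.77), Ppp1r15a (1.71), Creb3l2 (2.08), Slc7a11 (4.04), Slc1a5 (-0.66), Aars (0.84), Aldh18a1 (-1.16) and Got1 (1.38) were still called. The count of tRNA synthetases that rose thus went from 7 to 3, and that of folding genes that fell from 1 to 0.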

How the data were processed

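The series held RNA sequencing of mouse organoids in 24 libraries. Per the labels and the study's methods, paired-end reads were trimmed with Trimmomatic 0.36 and aligned with STAR 2.5.2b, and the authors deposited raw counts per gene for each tissue. The labels name the mm10 build and also mm9, without a role, while the annotation release and whether strand was used are not given in the sources used here. The tables name genes by Ensembl identifier. Of 45706 identifiers 45143 were matched to GENCODE M21 and 563 were not, and all 193 genes of the lists were matched.

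Counts were analysed with edgeR 4.0.16 in R 4.3.3 by the quasi-likelihood test, with TMM scaling and the filterByExpr filter, on all 12 libraries of a tissue, or on all 24 for differences between tissues. For off organoids the 2 libraries of a culture were summed. Genes with an adjusted p (Benjamini-Hochberg, over all genes tested) under 0.05 are termed called. Standard errors of log2 fold changes were taken from the information matrix of the fit, scaled by the moderated quasi-dispersion. CPM were computed from the counts with TMM scaling within a tissue unless stated, and levels per kilobase used the length of all annotated exons. The fitting code was tested on simulated data. Limma 3.58.1 (voom), DESeq2 1.42.0, other scaling and filters, a replicate block and leaving out each library or culture were the alternatives. The study fitted limma, and the count test was used here because raw counts were deposited.

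All 32 members are reported. Atf3 and Ppp1r15a of the wider lists and the goblet cell marker Agr2 were always named. From the wider lists up to 2 called genes per list, direction and BRAF arm that changed most were added. Their average log2 CPM had to reach 3 with no overlap of on and off libraries. The members and lists were chosen with earlier results of these data known. Duplicates came from 1 culture, so p-values measure only the spread between them, which may be technical, except for off organoids, where cultures were compared. With chi-square values of 22.3 to 101.8 per degree of freedom duplicates differed by more than sampling noise. Promoters were RefSeq sequences of GRCm38.p6.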

Additional observations from a re-analysis of the deposited data

Results flagged for a closer look

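Members whose responses differed between cultures or tissues by a test of the difference itself (edgeR quasi-likelihood test, adjusted p under 0.05, log2 scale) were set apart for a closer look. In COL, the BRAFp53 response exceeded the BRAF response for Pdia6 (0.90) and Chac1 (1.61), and in both genes the off levels of the 2 cultures also differed. Chac1 was called in 0 of the 8 fits that left out 1 library and Pdia6 in 2 of 8, and neither with the replicate block. In SI, the BRAFp53 response exceeded the BRAF response for Ern2 (1.34) and Creb3l1 (1.13) and was smaller for Ddit3 (-1.20) and Trib3 (-0.91). The latter 2 were a share of members near that of all genes. Each of these SI calls was lost in some fits that left out 1 library, and those of Creb3l1 and Trib3 with the replicate block. Without SI BRAF on replicate 1 the values were 1.22 for Ern2, 1.07 for Creb3l1, -1.49 for Ddit3 and -1.12 for Trib3.

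Between tissues, the BRAF response was smaller in COL for 15 members. These were Trib3 (-2.22), Ddit3 (-1.93), Chac1 (-1.81), Hspa5 (-0.99), Dnajb9 (-0.99), Pdia4 (-0.86), Hyou1 (-0.79), Hsp90b1 (-0.71), Asns (-0.70), Edem1 (-0.68), Herpud1 (-0.68), Canx (-0.66), Pdia6 (-0.65), Manf (-0.59) and Calr (-0.53). The BRAFp53 response was smaller in COL for Creb3l1 (-1.41). The tissues also differed in dose, day and medium, which cannot be told apart from tissue, and for BRAFp53 in Xist and Y-linked transcripts.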

How the results depend on the processing

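No called member value changed sign under any alternative. Of 91 called member values, 91 kept their direction and call with DESeq2, RLE scaling, a minimum of 10 counts in every library or no filter, 90 with limma-voom, and 322 of 470 over all fits that left out 1 library or culture. Requiring a log2 fold change of at least 1 left 0 called members in COL BRAF, 3 in COL BRAFp53, 5 in SI BRAF, 4 in SI BRAFp53, 1 in the COL difference of responses, 3 in the COL less SI difference for BRAF and 5 between off organoids, where 7.97%, 7.02%, 11.9%, 4.92%, 0.511%, 5.79% and 19.5% of all genes were called. Without a filter on low counts there were 2 in COL p53, 3 in SI p53, 8 in the COL difference and 2 in the COL less SI difference for BRAFp53, while the shares of all genes called were 1.87%, 0.576%, 4.31% and 4.87% (0.142%, 0%, 0.907% and 3.52% with the filter). With at least 10 counts in every library the last 2 were 4 and 2 (2.90% and 8.51% of all genes). DESeq2 called 1 in COL p53, 2 in SI p53, 10 in the COL difference and 3 in the COL less SI difference for BRAFp53, beside 2.02%, 0.544% and 9.37% of all genes given an adjusted p, and 1580 of 14333 for the last.

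The replicate numbers did not pair the samples, since deviations of same-numbered on and off libraries correlated at -0.039 to 0.057 in the 6 cultures, and no pairing was crossed. With the replicate block the counts were 4 in COL BRAF, 0 in the COL difference, 2 in the SI difference and 2 in the COL less SI difference for BRAFp53 (17.0%, 0.0896%, 6.42% and 2.77% of all genes), and 68 of 82 called values kept their call. In the comparison of off organoids with genotype as a block, 8 of 9 did.

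Leaving out 1 library gave 3 to 6 called members in COL BRAF, 6 to 10 in COL BRAFp53, 15 to 23 in SI BRAF, 6 to 15 in SI BRAFp53, 0 in both p53 arms, 0 to 1 in the COL difference, 0 to 6 in the SI difference, 9 to 16 in the COL less SI difference for BRAF and 0 to 2 for BRAFp53. Leaving out 1 culture gave 6 to 12 between off organoids. Over all genes these fits called 9.59% to 12.1% in COL BRAF, 8.26% to 11.7% in COL BRAFp53, 19.8% to 29.7% in SI BRAF, 4.95% to 7.38% in SI BRAFp53, 0% to 1.36% in the COL difference, 3.30% to 11.8% in the SI difference, 5.63% to 8.57% in the COL less SI difference for BRAF, 1.10% to 3.40% for BRAFp53 and 13.1% to 29.0% between off organoids. These fits have fewer samples, and where 1 library remained in a group it was assumed to vary like the other groups. Each member had at least 310 counts in every library, and the on against off comparisons rest on duplicates of 1 culture.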

Other observations

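Pdia3 and Sdf2l1 were among the 3 members whose duplicates lay farthest apart in a group, the other being Phgdh. In COL BRAF off organoids Pdia3 was at 385 and 185 CPM and Sdf2l1 at 33.0 and 11.6 CPM in the 2 libraries, while Hspa5 was at 695 and 759 CPM.

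In SI organoids the off levels of Asns, Psat1, Phgdh and Mthfd2 were lowest in the BRAF culture, where Asns, Psat1 and Mthfd2 rose on induction. In COL organoids the off levels of Chac1 and Trib3 were lowest on average in the BRAFp53 culture, the one in which both rose. With 1 culture per genotype, whether a low off level goes with a larger response was not tested.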
